A study of Mus musculus with 9 samples.

Results

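Chemokine ligands are small secreted or membrane-tethered proteins that draw leukocytes along a gradient, and the genes described here encode them in mouse kidney after cisplatin. They were chosen by symbol: every annotated mouse gene named Ccl, Cxcl, Xcl or Cx3cl with a number and at most 1 lower-case letter. That gave 38 of 55385 genes in the deposited tables. Of the 38 genes, 17 reached 1 FPKM in at least 3 of the 9 libraries and were tested. A further 7 reached 1 FPKM in 1 or 2 libraries and 14 in none.

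Whole-kidney RNA of C57BL/6 mice was sequenced in 3 groups, each with 3 biological repeats. The day 3 and day 7 groups were taken 3 and 7 days after a single intraperitoneal injection of cisplatin at 20 mg/kg, and the sham group received the same volume of saline. Cisplatin, a platinum compound that binds DNA, is taken up by tubule cells and injures them. Values are FPKM, the fragments mapped to a gene per kilobase of its length, scaled to all fragments mapped in that library, so levels of different genes can be compared. Read counts were not analysed here, and depth is unknown. The sources used here give no age or sex and no time for the sham kidneys.

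A chemokine acts through a G protein-coupled receptor on the responding leukocyte, and the receptor decides which cell answers. CXC ligands with a Glu-Leu-Arg motif bind CXCR2 and draw neutrophils, and the interferon-induced CXC ligands bind CXCR3 on T and NK cells. Several CC ligands draw monocytes through CCR2 or CCR1. Ligands of healthy tissue include CXCL12 of stromal cells, the membrane-bound CX3CL1 and CXCL16, and CCL21 of lymphatic endothelium. The genes are taken here by the receptor class of their ligand.

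The FPKM of the 38 genes summed to 165.48, 143.24 and 143.53 at day 3, to 56.73, 100.38 and 52.25 at day 7, and to 65.37, 67.85 and 83.28 in sham. The day 3 libraries were all above the others, and day 7 library 2 stood above both other day 7 libraries and all 3 sham libraries. That library was the highest of its group for 14 of the 17 tested genes. It was also the day 7 library with the most transcripts of injured tubule, where 6 markers summed to 90.21 FPKM, against 10.6 and 7.82 in day 7 libraries 1 and 3. Havcr1 made up 58.22 of the 90.21, and each of the 6 markers was highest there among the day 7 libraries. In sham library 2, Havcr1 made up 35.45 of a sum of 43.69. The same markers summed to 1576.24 to 2177.53 FPKM at day 3 and 9.35 to 43.69 in sham, and their part in the ligand levels was not tested. Among sham libraries, number 3 was highest for 9 of the 17 genes. Several values at day 7 against sham are also given without day 7 library 2. The 8 proximal tubule markers were at summed FPKM of 2633.83 to 16770.95 at day 3, 19883.95 to 29840.93 at day 7 and 30332.42 to 39374.38 in sham. Kap made up most of each sum, at 2395.75, 12502.03 and 16456.75 FPKM at day 3. In the test described below all 8 markers fell at day 3 against sham, with a median log2 fold change of -3.06, where 20.6% of all tested genes fell.

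**Figure D1:**
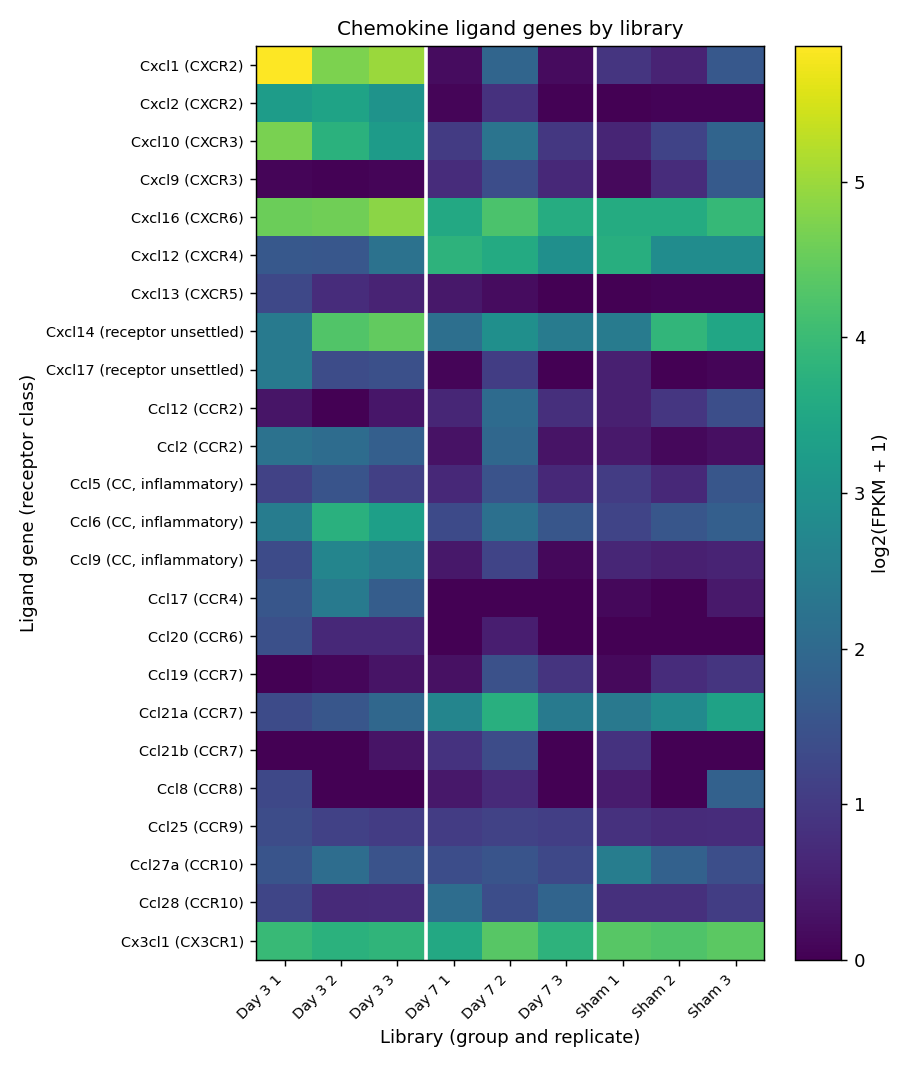
Level, as log2(FPKM + 1), of the 24 chemokine ligand genes that reached 1 FPKM in at least 1 library, by gene (rows, with receptor class) and library (columns). Cxcl1, Cxcl2 and Cxcl10 are bright in the 3 day 3 columns, and Cxcl12 and Ccl21a are darker there than in the day 7 and sham columns.

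At day 3 the neutrophil attractants Cxcl1 and Cxcl2 rose furthest against sham, Cxcl10, Ccl2, Ccl6, Ccl9, Ccl17, Cxcl16, Cxcl17 and Ccl25 rose by less, and the resident ligands Cxcl12 and Ccl21a fell. Of the 17 tested genes, 10 rose (58.8%) and 2 fell (11.8%) in a limma fit over all 13718 tested genes with Benjamini-Hochberg adjustment at 0.05. Across all tested genes 39.3% rose and 20.6% fell, 59.9% in either direction, so day 3 was a time of broad change. Median-of-ratios scaling, which moved the median of all genes at day 3 from 0.25 to 0.00, gave 3963 genes higher and 4037 lower in place of 5389 and 2825, and 9 ligand genes higher and 3 lower. No sham library reached 1 FPKM for 6 of the 17 genes, which entered the test through their cisplatin values, so the shares among tested genes are set in part by the filter and do not speak for the whole family. Without the filter, 37 of the 38 genes could be fitted, and 14 rose and 2 fell, with 22.3% higher, 8.92% lower and 31.2% in either direction among 32394 genes. The median log2 fold change in that fit was 0.16 over the 37 ligand genes and 0.046 over all genes.

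The largest rises were in the ligands of CXCR2. Cxcl1 (chromosome 5, 90891241 to 90893115, GRCm38), which encodes a neutrophil attractant, stood at 57.65, 25.14 and 30.55 FPKM at day 3, at 0.15, 2.79 and 0.13 at day 7, and at 0.87, 0.51 and 2.08 in sham. The day 3 libraries did not overlap the others, and day 7 and sham overlapped. The log2 fold change at day 3 against sham was 4.15 ± 0.51 (SE, limma adjusted p = 0.000177), on the scale of log2(FPKM + 1) used throughout, which understates the change of low genes. Cxcl2 (chromosome 5, 90903871 to 90905938), whose protein acts on the same receptor, was at 8.44, 9.57 and 7.11 FPKM at day 3, at 0.05, 0.78 and 0.02 at day 7, and at 0, 0.04 and 0.04 in sham. It was next to nothing in sham and close among the day 3 libraries, and it rose by 3.18 ± 0.21 (limma adjusted p = 9.92e-06).

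The other 2 CXCR2 ligands were below the filter in all groups and were highest at day 3. Cxcl5, which is made by epithelia, was at 0.43, 0.46 and 0.64 FPKM at day 3, at 0, 0.18 and 0 at day 7, and at 0, 0 and 0.02 in sham. Cxcl3 was at 0.12, 0.45 and 0.14 FPKM at day 3, at 0, 0.02 and 0 at day 7, and was listed at 0 in all 3 sham libraries. In the fit without a filter both rose at day 3 (limma adjusted p = 0.000808 for Cxcl5 and 0.0328 for Cxcl3), at levels far under those of Cxcl1. Summed over the 4 genes, CXCR2 ligands stood at 66.64, 35.62 and 38.44 FPKM at day 3, at 0.2, 3.77 and 0.15 at day 7, and at 0.87, 0.55 and 2.14 in sham.

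Cxcr2, the receptor of these ligands and a gene of neutrophils, was at 0.7, 2.25 and 1.13 FPKM at day 3, at 0.07, 0.51 and 0.09 at day 7, and at 0.12, 0.07 and 0.13 in sham. It stayed below the filter, and its day 3 libraries lay above all others. The 11 neutrophil markers, Cxcr2 among them, summed to 30.92 to 109.86 FPKM at day 3, 4.73 to 22.81 at day 7 and 2.74 to 14.61 in sham. S100a9 was the largest single part of that sum in every library, at 13.97, 48.49 and 29.24 FPKM at day 3. Of the 11 markers 4 were tested and all 4 rose at day 3, where 39.3% of all tested genes rose. Mmp8, at 1.66, 4.43 and 2.43 FPKM at day 3 and at most 0.11 elsewhere, passed the filter through day 3 alone. The filter thus set that count in part. Mpo, of neutrophil granules, was at 0 in the day 3 and sham libraries and Elane at no more than 0.05. Within day 3, library 1 had the most Cxcl1 and the lowest marker sum, and library 2 the least Cxcl1 and the highest. The part of neutrophil number in the ligand levels was not tested, and in bulk tissue more cells of a type and more RNA per cell cannot be told apart.

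Cxcl3, Cxcl1 and Cxcl2 lie in 1 cluster on chromosome 5, and their promoters are shown because the 3 genes were all highest at day 3. The sequences are from RefSeq on GRCm38.p6, 5′ to 3′ on the gene's strand, and end at the annotated transcript start or just before it. Capitals mark, on either strand, matches to GGG, any 3 bases and TTCC, a form of the binding site of NF-kB, the transcription factor that inflammatory cytokines activate.
Cxcl1 promoter, chr5:90890995-90891240, plus strand: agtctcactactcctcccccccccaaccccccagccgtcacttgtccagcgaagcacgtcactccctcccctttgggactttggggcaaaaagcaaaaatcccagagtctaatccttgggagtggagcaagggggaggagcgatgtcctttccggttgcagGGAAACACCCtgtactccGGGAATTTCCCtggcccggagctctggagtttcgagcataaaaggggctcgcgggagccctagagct
Cxcl2 promoter, chr5:90903649-90903870, plus strand: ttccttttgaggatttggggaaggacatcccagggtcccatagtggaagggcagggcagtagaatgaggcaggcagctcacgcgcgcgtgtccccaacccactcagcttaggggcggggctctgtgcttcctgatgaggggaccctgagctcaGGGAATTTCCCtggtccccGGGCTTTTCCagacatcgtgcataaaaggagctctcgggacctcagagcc
Cxcl3 promoter, chr5:90785851-90786100, plus strand: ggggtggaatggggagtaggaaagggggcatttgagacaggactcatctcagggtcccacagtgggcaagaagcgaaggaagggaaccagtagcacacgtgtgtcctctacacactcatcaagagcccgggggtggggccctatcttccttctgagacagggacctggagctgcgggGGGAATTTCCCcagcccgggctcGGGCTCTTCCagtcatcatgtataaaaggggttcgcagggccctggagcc
The run GGGAATTTCC was in all 3 windows. It began 71 bases before the RefSeq start in Cxcl1, 97 in Cxcl2 and 73 in Cxcl3. Its letters also match on the opposite strand, 1 base further on, so that stretch counts on both. Among 32851 RefSeq promoter windows of 250 bases, 4.65% held a match to this motif. Of the 27 ligand genes with a promoter in the table, 7 held one: Ccl1, Ccl9, Ccl20, Cxcl1, Cxcl2, Cxcl3 and Cxcl10. A match describes the letters and shows no binding. Ccl1 held one and was at 0.03 FPKM at most in any library. Cxcl15, between Cxcl3 and Cxcl1 in the cluster, held none and reached 0.02 FPKM at most. Of the other ligand genes that rose at day 3, with or without the filter, Ccl6, Ccl17, Ccl25 and Cxcl13 held none. Ccl2, Cxcl5, Cxcl16 and Cxcl17, which also rose, had no window.

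Of the 3 ligands of CXCR3, Cxcl10 alone passed the filter, and it rose at day 3. Cxcl10 (chromosome 5, 92346638 to 92348889), induced by interferons and by NF-kB, was at 25, 12.44 and 8.41 FPKM at day 3, at 1.02, 3.77 and 0.92 at day 7, and at 0.53, 1.27 and 2.72 in sham. Its day 3 libraries did not overlap the others, and it rose by 2.66 ± 0.49 on the log2 scale (limma adjusted p = 0.00153). Cxcl9, which is mainly induced by interferon gamma and lies 18.6 kb from Cxcl10, was at 0.05, 0.03 and 0.05 FPKM at day 3, at 0.67, 1.61 and 0.59 at day 7, and at 0.11, 0.69 and 2.16 in sham. It stayed below the filter, with its 3 lowest values at day 3, and in the fit without a filter its log2 difference at day 3 against sham was -0.79 (95% interval -1.62 to 0.03, limma adjusted p = 0.134). Cxcl11 lies 10.7 kb beyond Cxcl10 and reached 0.66 FPKM at most. C57BL/6 mice are known to carry a Cxcl11 allele that yields no functional protein.

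Transcripts of the cells that answer CXCR3 ligands were low at day 3. Cxcr3 was at 0, 0.08 and 0 FPKM at day 3, at 0.26, 0.46 and 0.13 at day 7, and at 0.22, 0.22 and 0.59 in sham. The 10 T and NK cell markers summed to 0.29 to 0.53 FPKM at day 3, 2.35 to 5.57 at day 7 and 4.55 to 5.44 in sham. Trac, of the T cell receptor, was the 1 tested marker and fell at day 3 (log2 fold change -1.57, limma adjusted p = 0.00182). Ifng was listed at 0 in all 3 day 3 libraries. The part of T cell number in the Cxcl9 values was not tested.

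The Cxcl10 promoter is shown for its letters beside those of the CXCR2 ligands. Capitals mark both the NF-kB motif above and TTTC, any 2 bases and TTTC, a form of the interferon response element, on either strand.
Cxcl10 promoter, chr5:92348890-92349139, minus strand: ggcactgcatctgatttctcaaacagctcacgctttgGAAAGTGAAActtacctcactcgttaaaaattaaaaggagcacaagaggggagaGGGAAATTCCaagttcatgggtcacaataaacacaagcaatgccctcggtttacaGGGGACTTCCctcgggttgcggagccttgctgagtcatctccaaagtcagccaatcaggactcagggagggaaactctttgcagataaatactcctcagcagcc
It held 2 matches to the first, which began 159 and 104 bases before the start, and 1 to the second on the opposite strand, at 213 bases. The interferon motif was in 2.98% of all windows and in 3 of the 27 ligand genes, which were Ccl19, Cxcl10 and Cxcl14. The AP-1 site TGANTCA was in 6.75% of all windows and in 4 of these genes, Ccl9, Ccl27a, Ccl27b and Cxcl10.

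**Figure D2:**
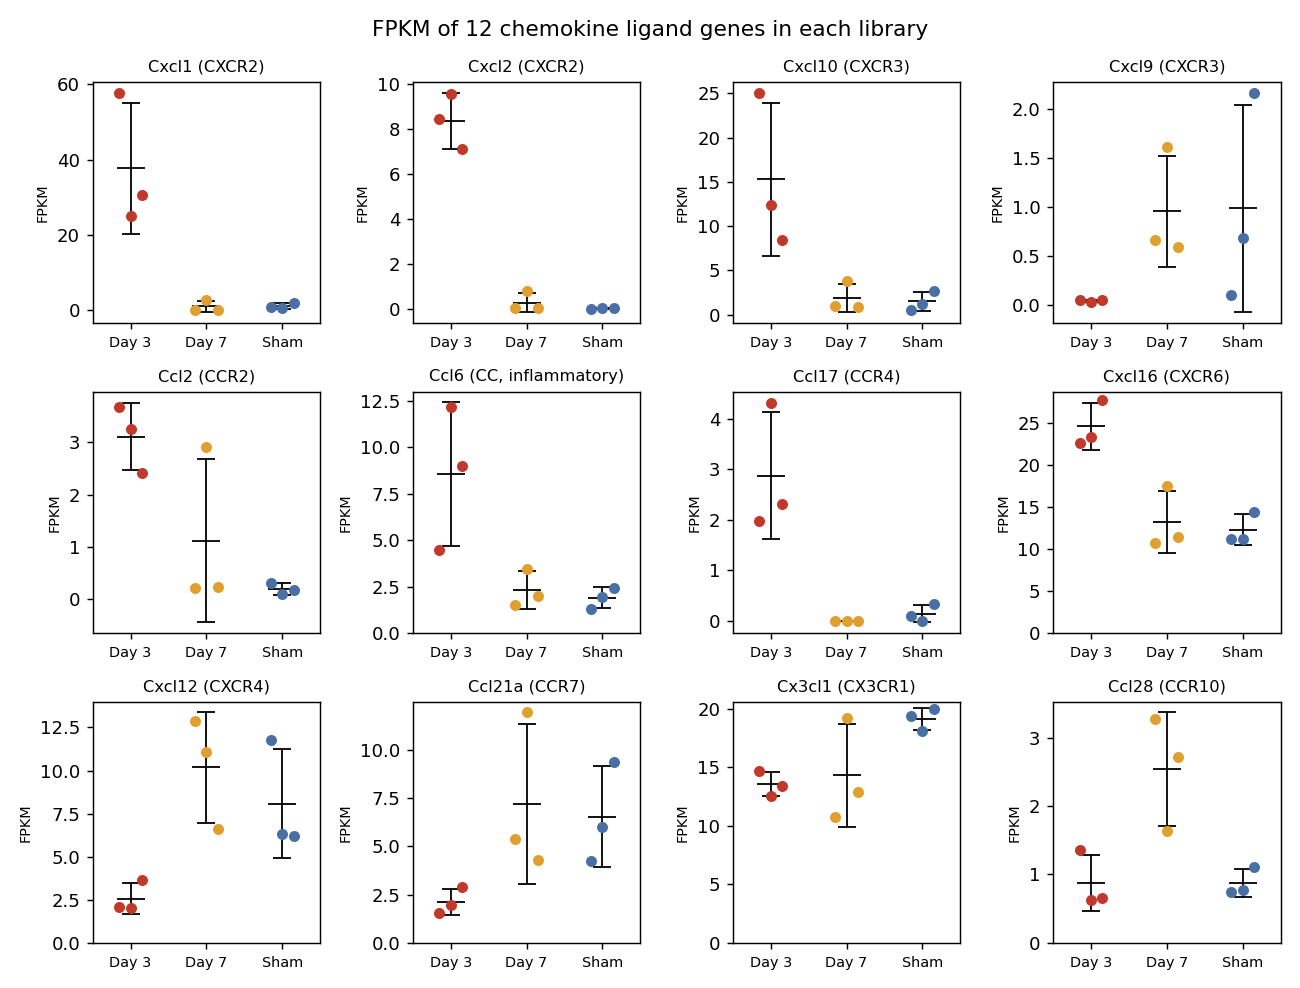
FPKM (linear axes, 1 point per library) of 12 chemokine ligand genes at day 3, day 7 and in sham, with bars for the mean ± SD of 3 libraries. The points of Cxcl1, Cxcl2, Cxcl10, Ccl6, Ccl17 and Cxcl16 at day 3 lie above all others, those of Cxcl12 and Ccl21a below all others, and 1 day 7 point of Ccl2 (2.92) stands with the day 3 points.

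Of the CCR2 ligands, which draw inflammatory monocytes, Ccl2 alone passed the filter. Ccl2 (chromosome 11, 82035571 to 82037453) was at 3.67, 3.25 and 2.41 FPKM at day 3, at 0.22, 2.92 and 0.23 at day 7, and at 0.32, 0.1 and 0.18 in sham. It rose by 1.77 ± 0.40 at day 3 (limma adjusted p = 0.00488), and the single high value at day 7 belonged to library 2. Ccl7, 8.3 kb away, was at 0.58, 0.36 and 0.61 FPKM at day 3, at 0.12, 0.46 and 0.11 at day 7, and at 0.4, 0.19 and 0.21 in sham. Ccl12, a mouse ligand of the same receptor, had its lowest levels at day 3, at 0.26, 0 and 0.27 FPKM, with 0.55, 3.16 and 0.73 at day 7 and 0.43, 0.89 and 1.68 in sham. Neither Ccl7 nor Ccl12 was called in the fit without a filter (limma adjusted p = 0.172 and 0.204 at day 3 against sham). Ccr2 itself was at 0.37, 0.92 and 0.85 FPKM at day 3, at 0.53, 1.81 and 0.49 at day 7, and at 0.28, 0.48 and 0.28 in sham.

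Among the other inflammatory CC ligands the myeloid pair Ccl6 and Ccl9 rose and Ccl5 was not called. Ccl6 (chromosome 11, 83587882 to 83593087) was at 4.49, 12.19 and 8.99 FPKM at day 3, at 1.5, 3.46 and 1.98 at day 7, and at 1.31, 1.95 and 2.43 in sham. Ccl9, 9.2 kb from it, was at 1.54, 5.42 and 4.29 FPKM at day 3, at 0.3, 1.32 and 0.09 at day 7, and at 0.55, 0.44 and 0.49 in sham. Both were lowest in library 1 within day 3 and still above every sham and day 7 value. They rose by 1.65 ± 0.34 and 1.57 ± 0.37 at day 3 (limma adjusted p = 0.00266 and 0.00559). Ccl5, a ligand of T and NK cells, was at 1.25, 1.87 and 1.15 FPKM at day 3, at 0.6, 1.82 and 0.6 at day 7, and at 1.06, 0.61 and 1.98 in sham, with a log2 difference of 0.16 at day 3 against sham (95% interval -0.48 to 0.81). Under median-of-ratios scaling the sign of that value turned (-0.022). Ccl3 and Ccl4 reached 0.34 and 0.39 FPKM at most.

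Ccr1, the receptor of CCL6 and CCL9 on myeloid cells, was at 1.58, 4.97 and 4.18 FPKM at day 3, at 0.16, 0.68 and 0.08 at day 7, and at 0.18, 0.15 and 0.07 in sham. It rose by 1.93 ± 0.30 at day 3 (limma adjusted p = 0.000649), and its day 3 libraries stood in the order of Ccl6. Ccr1 passed the filter through day 3 libraries alone. The 12 macrophage and monocyte markers summed to 173.61 to 252.79 FPKM at day 3, 45.65 to 133.89 at day 7 and 89.19 to 98.55 in sham, and day 3 library 1 was the lowest of its group here too. Cd68 was the largest single part of the day 3 sums, at 95.15, 113.57 and 86.69 FPKM, against 4.33, 5.05 and 3.75 in sham. Of 10 tested markers 3 rose and 3 fell at day 3, where 39.3% of all tested genes rose and 20.6% fell, so the list did not move as 1. Itgam, among those that rose, also passed the filter through day 3 alone, at 1.18, 9.07 and 6.57 FPKM. The part of myeloid cell number in Ccl6 and Ccl9 was not tested.

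Ccl17, near 0 outside day 3, rose, and the other ligand of its receptor stayed below the filter. Ccl17 (chromosome 8, 94810453 to 94812036), a ligand of CCR4 on regulatory and type 2 helper T cells, was at 1.98, 4.31 and 2.32 FPKM at day 3, was listed at 0 in all 3 day 7 libraries, and was at 0.09, 0 and 0.32 in sham. Its log2 fold change at day 3 was 1.73 ± 0.21 (limma adjusted p = 0.000169). Ccl22, the other CCR4 ligand, reached 0.57 FPKM at most, in sham. Ccr4 was listed at 0 in the day 3 libraries and reached 0.05 FPKM at most elsewhere. Ccl17, Cx3cl1 and Ccl22 are neighbours on chromosome 8, with 28 kb between Cx3cl1 and Ccl17 and 20.3 kb between Ccl22 and Cx3cl1, and at day 3 against sham Ccl17 was called, Cx3cl1 missed the threshold and Ccl22 was not tested. The 6 markers of dendritic cells, a known source of CCL17 and CCL22, summed to 2.29 to 3.5 FPKM at day 3, 2.8 to 6 at day 7 and 3.09 to 3.79 in sham.

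By mean FPKM the membrane-bound ligands were the 2 most abundant of the family at day 7 and in sham. Cxcl16 (chromosome 11, 70453983 to 70459984), a ligand of CXCR6 that is also a scavenger receptor, was at 22.64, 23.35 and 27.73 FPKM at day 3, at 10.76, 17.49 and 11.38 at day 7, and at 11.2, 11.23 and 14.4 in sham. It rose by 0.95 ± 0.19 at day 3 (limma adjusted p = 0.00241). Cxcr6 was listed at 0 in all 3 day 3 libraries and reached 0.39 FPKM at most at day 7 and 0.11 in sham. Zmynd15, which overlaps Cxcl16 on the opposite strand, reached 2.92 FPKM at most.

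Cx3cl1 (chromosome 8, 94772009 to 94782427), the fractalkine of endothelium and epithelium, was at 14.65, 12.57 and 13.43 FPKM at day 3, at 10.76, 19.24 and 12.9 at day 7, and at 19.34, 18.12 and 19.95 in sham. The day 3 libraries lay below all sham libraries, but the difference of -0.47 (95% interval -0.89 to -0.05) missed the threshold (limma adjusted p = 0.0530). It passed, as a fall, with median-of-ratios scaling (-0.78, limma adjusted p = 0.00321) and with quantile normalization (-0.60, limma adjusted p = 0.0178). Its receptor gene Cx3cr1, of resident macrophages, was at 0.05, 0.07 and 0.25 FPKM at day 3, at 0.75, 3 and 0.76 at day 7, and at 1.18, 1.42 and 1.02 in sham. Adam10, the protease that sheds CX3CL1 and CXCL16 from the membrane, was at 22.15, 14.31 and 15.19 FPKM at day 3, at 13.36, 14.19 and 13.67 at day 7, and at 5.72, 1.76 and 3.33 in sham. It rose by 2.05 ± 0.29 at day 3 and by 1.77 ± 0.29 at day 7 (limma adjusted p = 0.000399 and 0.00373 against sham), and Adam17, a second sheddase, rose by 0.44 ± 0.12 and 0.62 ± 0.12. The call on Adam17 at day 3 was lost with median-of-ratios scaling (0.18, limma adjusted p = 0.226), with quantile normalization (0.359) and with GC content and length trends removed (0.187).

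Resident ligands of stroma and lymphatics fell at day 3. Cxcl12 (chromosome 6, 117168535 to 117181367), which holds CXCR4-bearing cells in tissue, was at 2.08, 2.01 and 3.63 FPKM at day 3, at 12.87, 11.05 and 6.63 at day 7, and at 11.75, 6.29 and 6.2 in sham. The day 3 libraries lay below all others, and the log2 fold change at day 3 against sham was -1.32 ± 0.30 (limma adjusted p = 0.00492). Its receptor gene Cxcr4 was not called at day 3 against sham (0.16, limma adjusted p = 0.544). Ackr3, the scavenging receptor that removes CXCL12, was at 11.33, 7.07 and 6.97 FPKM at day 3, at 10.23, 16.81 and 11.93 at day 7, and at 14.62, 21.06 and 15.59 in sham, and it fell by 0.95 at day 3 (SE 0.24, limma adjusted p = 0.00741). The promoter of Cxcl12 is shown as one with no match to any of the 3 motifs.
Cxcl12 promoter, chr6:117168285-117168534, plus strand: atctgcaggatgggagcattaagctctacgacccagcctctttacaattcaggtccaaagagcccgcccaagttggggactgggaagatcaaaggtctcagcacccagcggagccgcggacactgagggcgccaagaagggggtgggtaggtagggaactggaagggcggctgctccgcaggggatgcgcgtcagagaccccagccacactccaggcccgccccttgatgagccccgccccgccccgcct

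Ccl21a (chromosome 4, 42772860 to 42773993), the CCR7 ligand of lymphatic endothelium, was at 1.54, 1.97 and 2.88 FPKM at day 3, at 5.37, 11.95 and 4.3 at day 7, and at 4.22, 6 and 9.39 in sham. It fell at day 3 (log2 fold change -1.23 ± 0.36, limma adjusted p = 0.0166). The call was lost without day 3 library 1 (limma adjusted p = 0.0545), without sham library 3 (0.0590) and with GC content and length trends removed (0.0522). Ccl21b, a near-identical copy, was at 0.23 FPKM or less at day 3, at 0.83, 1.57 and 0 at day 7, and at 0.81, 0 and 0 in sham, so reads of the 2 genes may have been split between them. Ccl19, the other CCR7 ligand, was at 0, 0.08 and 0.24 FPKM at day 3, at 0.2, 1.74 and 0.85 at day 7, and at 0.11, 0.67 and 0.88 in sham, and was not called without the filter (limma adjusted p = 0.315). Ccr7 reached 0.35 FPKM at most. The 9 endothelial markers summed to 55 to 134.72 FPKM at day 3, 69.69 to 102.61 at day 7 and 112.56 to 155.32 in sham. Plvap was the largest single part of that sum in every library. It was at 22.36, 38.11 and 48.67 FPKM at day 3 and at 82.64, 86.01 and 57.4 in sham. All 9 markers were tested, and at day 3 against sham 1 rose and 4 fell. Across all tested genes 39.3% rose and 20.6% fell. The 8 fibroblast and pericyte markers summed to 49.99 to 139.65, 41.74 to 70.2 and 51.87 to 57.88 FPKM at day 3, at day 7 and in sham. Acta2 was the largest single part of the fibroblast and pericyte sum in every library, at 22.24, 33.24 and 65.5 FPKM at day 3. The part of these cells in the levels of Cxcl12 and Ccl21a was not tested.

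Of the ligands left, Cxcl17 and Ccl25 were called at day 3. Cxcl17, a mucosal ligand whose receptor is not settled, was at 4.23, 1.57 and 1.71 FPKM at day 3, at 0.06, 1.11 and 0 at day 7, and at 0.42, 0 and 0.05 in sham, and rose by 1.54 ± 0.35 (limma adjusted p = 0.00504). Cxcl14, an epithelial ligand also without a settled receptor, was at 4.27, 18.48 and 20.98 FPKM at day 3, at 3.45, 6.62 and 4.42 at day 7, and at 4.45, 13.47 and 10.21 in sham. Library 1 was the lowest of all 3 groups, and Cxcl14 was not called at day 3 (0.45 ± 0.56, limma adjusted p = 0.508), except without day 3 library 1 (1.11, limma adjusted p = 0.0459). Ccl25, a ligand of CCR9 best known in thymus and gut, was at 1.56, 1.21 and 1.07 FPKM at day 3, at 1.05, 1.24 and 1.12 at day 7, and at 0.8, 0.65 and 0.68 in sham. Its rise at day 3 (0.41 ± 0.11, limma adjusted p = 0.0133) was not called with median-of-ratios scaling (0.25, limma adjusted p = 0.0610), quantile normalization (0.188) or GC content and length trends removed (0.285). Elavl1, at up to 7.17 FPKM, overlaps it on the opposite strand. Ccr9 reached 0.07 FPKM at most.

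Of the other members below the filter, Ccl20 and Cxcl13 rose at day 3 in the fit without one. Ccl20, a ligand of CCR6, was at 1.69, 0.6 and 0.6 FPKM at day 3, at 0, 0.41 and 0 at day 7, and was listed at 0 in sham (log2 difference 0.93, limma adjusted p = 0.0123). Cxcl13, the CXCR5 ligand that draws B cells, was at 1.41, 0.68 and 0.51 FPKM at day 3, at 0.3, 0.14 and 0 at day 7, and at 0, 0.04 and 0.04 in sham (0.83, limma adjusted p = 0.00665). The 4 B cell markers summed to 1.21 to 1.92 FPKM at day 3, 0.32 to 0.83 at day 7 and 0.82 to 1.92 in sham. Among these, Cd79a was at 0.68, 1.3 and 1.55 FPKM at day 3, at 0.02 to 0.11 at day 7 and at 0.13 to 0.39 in sham, while Ms4a1 was at 0 in the day 3 libraries. The part of B cells in the Cxcl13 values was not tested. Cxcr5 reached 0.16 FPKM at most, and Ccr6 was listed at 0 in all libraries. Ccl8, in mouse a ligand of CCR8, was at 1.42, 0 and 0 FPKM at day 3, at 0.29, 0.63 and 0 at day 7, and at 0.36, 0 and 2.56 in sham, with no pattern by group, and Ccr8 reached 0.08 at most. The eotaxin genes Ccl11 and Ccl24 reached 0.6 and 0.11 FPKM at most, Xcl1, of T and NK cells, 0.5, Ccl27b 0.22 and Ccl1 0.03, and Ccl26 was listed at 0 in all 9 libraries.

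**Figure D3:**
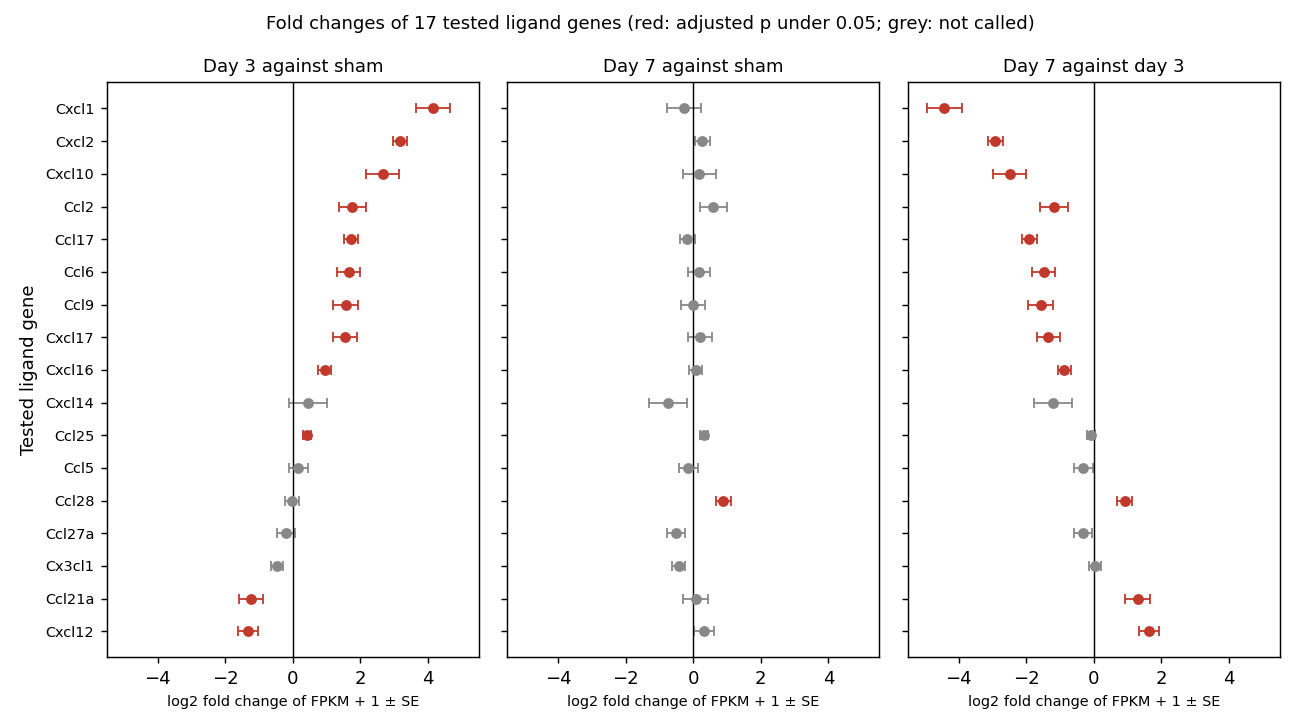
Log2 fold change of FPKM + 1 with its standard error from limma for the 17 tested ligand genes (rows) in the 3 comparisons (panels). Red points have an adjusted p under 0.05: 12 genes at day 3 against sham, 1 at day 7 against sham and 12 at day 7 against day 3.

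At day 7 a single ligand gene was called against sham. Of 17 tested genes, Ccl28 rose (5.88%) and none fell, where 19.3% of all tested genes rose, 10.4% fell and 29.7% did either. With median-of-ratios scaling 2103 genes rose and 2321 fell in place of 2646 and 1429. At an unadjusted limma p under 0.05 there were 3, Ccl25, Ccl28 and Cx3cl1. Cx3cl1 ranked 5549 by p among the 13718 tested genes, so a large share of all genes also passed that cut. The fit without a filter called 1 of 37 (higher, as were 6.48% of all genes, with 9.48% in either direction). Ccl28 (chromosome 13, 119623819 to 119654359), a ligand of CCR10 and CCR3 made by mucosal epithelia, was at 1.35, 0.62 and 0.65 FPKM at day 3, at 3.27, 1.63 and 2.72 at day 7, and at 0.75, 0.77 and 1.11 in sham. All 3 day 7 libraries lay above all others. Ccr10, below the filter, was at 0.06, 0.11 and 0.14 FPKM at day 3, at 0.24, 0.35 and 0.34 at day 7, and at 0.1, 0.07 and 0.1 in sham. The rise of Ccl28 was 0.89 ± 0.21 (limma adjusted p = 0.0152). The call was lost without day 7 library 1 (0.0534), without day 7 library 3 (0.0526), without sham library 2 (0.0541) and with GC content and length trends removed (limma adjusted p = 0.303).

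The intervals at day 7 show how far the other values could still be from sham. For Cxcl1 the log2 difference at day 7 against sham was -0.27 (95% interval -1.43 to 0.89), for Cxcl10 0.17 (-0.94 to 1.28) and for Ccl2 0.59 (-0.32 to 1.51). For Cxcl2 it was 0.27 (-0.21 to 0.76) and for Cxcl16 0.08 (-0.35 to 0.51). Of the genes that fell at day 3, Cxcl12 stood at 0.31 (-0.38 to 0.997) and Ccl21a at 0.07 (-0.76 to 0.89). The myeloid ligands Ccl6 and Ccl9 stood at 0.17 (-0.59 to 0.93) and -0.0056 (-0.84 to 0.83), and Cxcl14 had the widest interval (-2.03 to 0.52). Without day 7 library 2 the value was -0.85 for Cxcl1, 0.034 for Ccl2 and 0.012 for Cxcl2. It turned its sign for Cxcl10 (-0.25), Cxcl16 (-0.13), Ccl21a (-0.32), Ccl6 (-0.067) and Cxcl17 (-0.15, against 0.20 with it), and was -0.33 for Ccl9. None of these was called. The value of Cx3cl1, -0.43 with that library, became a called fall (-0.65, limma adjusted p = 0.0160), so that 2 ligand genes were called, among 2699 genes in all. Ccl27a, the CCR10 ligand known from skin, was at 1.62, 1.88 and 1.41 FPKM at day 7 and at 4.63, 2.52 and 1.66 in sham (-0.51, 95% interval -1.13 to 0.10). It was at 1.88, 3.26 and 1.82 FPKM at day 3. Il11ra1, at up to 15.86 FPKM, overlaps Ccl27a on the opposite strand, and whether the deposited FPKM used the strand of the reads is not known. Ccl27b is a near-identical copy of Ccl27a, and the split of reads between them is uncertain.

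Between the 2 times after cisplatin, Cxcl1, Cxcl2, Cxcl10, Ccl2, Ccl6, Ccl9, Ccl17, Cxcl16 and Cxcl17 fell at day 7, and Cxcl12, Ccl21a and Ccl28 rose. Of 17 tested genes 3 rose (17.6%) and 9 fell (52.9%) at day 7 against day 3, where 21.7% of all tested genes rose and 33.7% fell, 55.4% in all. Cxcl2 and Ccl17 passed the filter through day 3 libraries alone, and Ccl2, Ccl9 and Cxcl17 through those of day 3 and 1 of day 7. The share that fell is thus set in part by the filter. With median-of-ratios scaling 3724 genes rose and 3710 fell in place of 2977 and 4626, and the ligand counts stayed at 3 and 9. They also stayed at 3 and 9 without day 7 library 2, where 2537 genes rose and 4468 fell. The fit without a filter called 3 of 37 higher and 12 lower, where 10.2% and 19.2% of 32394 genes were, 29.3% in all. Both comparisons use the same day 3 libraries, so the values stand side by side and are not independent. The log2 fold change was -4.42 ± 0.51 for Cxcl1 (limma adjusted p = 0.000154), -2.91 ± 0.21 for Cxcl2 (1.70e-05), -2.49 ± 0.49 for Cxcl10 (0.00248) and -1.91 ± 0.21 for Ccl17 (0.000127). Ccl6, Ccl9, Cxcl17 and Cxcl16 also fell (-1.48, -1.57, -1.34 and -0.87), with limma adjusted p between 0.00417 and 0.0109. Cxcl12 rose by 1.63 ± 0.30 (0.00184), Ccl21a by 1.30 ± 0.36 (0.0143) and Ccl28 by 0.91 ± 0.21 (0.00615).

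The fall of Ccl2 was the least steady of these (-1.17 ± 0.40, limma adjusted p = 0.0347). It was not called without any 1 of the day 3 libraries (limma adjusted p = 0.0502 to 0.0895) or without day 7 library 1 or 3 (0.117 and 0.120), and day 7 library 2 overlapped the day 3 range. Without that library the fall was -1.73 (limma adjusted p = 0.000189). Cxcl14 was not called (-1.21, 95% interval -2.48 to 0.07), except with the replicate number as a block (limma adjusted p = 0.0131) or without day 3 library 1 (0.00577). Ccl5, Ccl25, Ccl27a and Cx3cl1 were not called either.

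**Figure D4:**
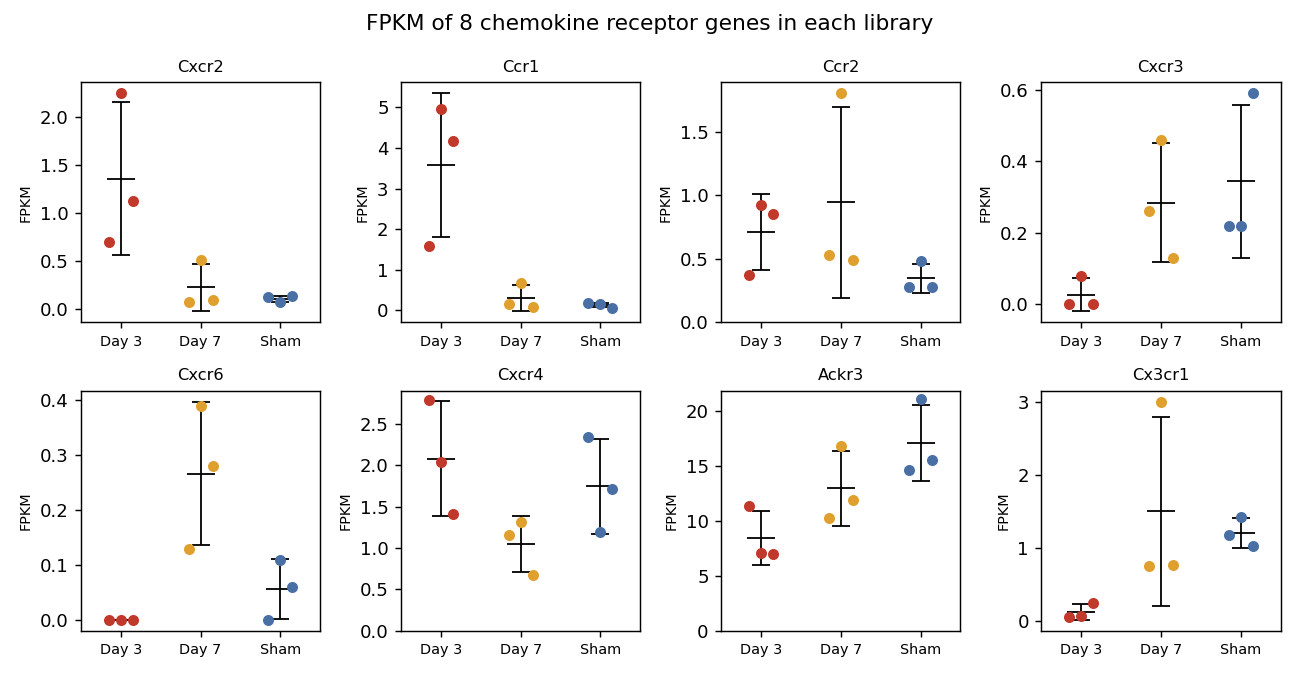
FPKM (linear axes, 1 point per library) of 8 chemokine receptor genes at day 3, day 7 and in sham, with bars for the mean ± SD of 3 libraries. Cxcr2 and Ccr1 are highest at day 3, where Cx3cr1 and Cxcr3 are lowest and Cxcr6 is at 0.

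None of the 17 conventional receptor genes read here exceeded 4.97 FPKM in any library. Of these, 3 were tested, and at day 3 Ccr1, which passed the filter through day 3 alone, rose and Cx3cr1 fell (-0.97 ± 0.29, limma adjusted p = 0.0184). The call on Cx3cr1 was lost without day 3 library 1 (0.0501), day 3 library 2 (0.0513) or sham library 2 (0.0586). None was called at day 7 against sham. At day 7 against day 3, Ccr1 fell by 1.75 ± 0.30 (limma adjusted p = 0.00127), Cx3cr1 rose by 1.04 ± 0.29 (0.0148) and Cxcr4 fell by 0.58 ± 0.22 (0.0495), a call that 9 of the alternatives ended (0.0514 to 0.164). Among 5 atypical receptors, which bind chemokines without drawing cells, 2 were tested and Ackr3 was the 1 called. Ccrl2 ranged from 1.01 to 1.71 FPKM over the 9 libraries.

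Of 10 cytokines known to induce chemokines, 2 were tested. Il1b, an inducer of Cxcl1 and Cxcl2, was at 1.4, 3.94 and 2.34 FPKM at day 3, at 0.28, 1.5 and 0.65 at day 7, and at 0.35, 0.21 and 1.13 in sham, and rose by 1.17 ± 0.34 at day 3 (limma adjusted p = 0.0156). That call was lost without day 3 library 2 (0.0556) or sham library 2 (0.0578). At day 7 against day 3 it fell (-0.97 ± 0.34, limma adjusted p = 0.0371), a call that 8 of the alternatives ended. Il6 was below the filter at 0.5, 1.24 and 1.2 FPKM at day 3, at 0, 0.11 and 0 at day 7, and at 0, 0.02 and 0 in sham. Tnf was at 0.61, 0.55 and 1.02 FPKM at day 3, at 0.12, 0.33 and 0.04 at day 7, and at 0.08, 0.27 and 0.25 in sham. Both were highest in the day 3 libraries, and Il17a was listed at 0 in all 9.

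Of 6 proteases that shed or trim chemokines, 4 were tested. At day 3 Adam10, Adam17 and the membrane protease Mmp14 rose, the last by 1.49 ± 0.23 (limma adjusted p = 0.000605). At day 7 against day 3 Mmp14 fell (-1.55, limma adjusted p = 0.000582) and Dpp4 rose (1.15, limma adjusted p = 6.90e-05). Dpp4, the peptidase that clips and inactivates CXCL10 and CXCL12, was at 6.07, 6.31 and 6.25 FPKM at day 3, at 13.53, 17.17 and 14.5 at day 7, and at 10.16, 9.15 and 9.15 in sham. It fell at day 3 (-0.54 ± 0.11, limma adjusted p = 0.00294) and rose at day 7 (0.61 ± 0.11, limma adjusted p = 0.00532), both against sham. The rise at day 7 was not called with GC content and length trends removed (0.04, limma adjusted p = 0.856), nor was that of Adam17 (0.25, limma adjusted p = 0.246). Pf4 and Ppbp, the platelet chemokines outside the symbol rule, stayed below the filter at 2.25 and 0.47 FPKM at most.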

How the data were processed

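Each of the 9 kidneys gave 1 table. Its FPKM are the authors' own, per the file headers, and have 2 decimals. The submitters' processing notes list HISAT, StringTie, FastQC 0.10.1 and GRCm38 with no roles. The sources used here state no annotation release, settings or strand handling. Libraries were directional, per the labels' protocols.

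Symbols and coordinates came from GENCODE M21 (GRCm38), with a symbol for 55144 of 55385 IDs. The 13718 genes that reached 1 FPKM in 3 libraries or more were tested as log2(FPKM + 1), which understates changes of low genes. limma 3.58.1 (R 4.3.3) was fitted by group to all 9 libraries, with eBayes and a mean-variance trend. Tests are two-sided, p-values are Benjamini-Hochberg adjusted over the tested genes, and calls are at 0.05. The fit was tested on simulated data. Errors after ± are standard errors from limma, and SD in figures.

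Named are all tested ligand genes, those at 1 FPKM in some library and receptors of described classes. Called genes of the lists of receptors, cytokines and proteases are named too, with at most a few genes of each cell marker list. Accessory lists covered receptors, atypical receptors, inducing cytokines, platelet ligands, proteases and cell markers. The members, lists and motifs were chosen with earlier results of these data known.

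Alternatives changed the pseudocount to 0.1, dropped the filter or set it at 5 FPKM, applied median-of-ratios or quantile scaling, used only the 6 libraries compared, blocked on replicate number, or left out 1 library. Removing spline trends on GC content and transcript length was added after the data were seen. Promoter windows are the 250 bases before a RefSeq start (27 of the 38 genes had one), printed without annotated exon bases. No 2 libraries were identical.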

Additional observations from a re-analysis of the deposited data

Results flagged for a closer look

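For 12 of the 17 tested chemokine ligand genes (70.6%) the response to cisplatin differed between the times. The contrast of day 7 against day 3, which is the difference between the 2 responses because both are set against the same sham libraries, passed the limma threshold for each. It passed for 55.4% of all 13718 tested genes. On the log2(FPKM + 1) scale the difference was -4.42 for Cxcl1, -2.91 for Cxcl2, -2.49 for Cxcl10, -1.91 for Ccl17, -1.57 for Ccl9, -1.48 for Ccl6, -1.34 for Cxcl17, -1.17 for Ccl2 and -0.87 for Cxcl16. It was 0.91 for Ccl28, 1.30 for Ccl21a and 1.63 for Cxcl12. All 3 day 7 libraries lay outside the day 3 range for 11 of the 12 genes, and for Ccl2, whose call was lost in 7 alternatives, 2 of 3 did. The genes were picked by this same contrast, so that count follows in part from the picking and adds no support. Its share over all genes was not counted.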

How the results depend on the processing

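Of the 12 ligand genes called at day 3 against sham, 10 kept direction and call under every alternative that tested them, and Ccl21a and Ccl25 lost the call in 3 each. A filter at 5 FPKM tested fewer genes, 8 of them ligand genes. At day 3 against sham it called 7 of the 8 (4 higher and 3 lower) and 5104 genes in all. At day 7 against sham it called 0 of the 8 and 2879 genes in all. Between the 2 times it called 6 of the 8 and 4973 genes in all. At day 7 against sham, 2 ligand genes were called with median-of-ratios scaling (4424 genes in all) and 2 with the 6 libraries alone (4186 genes in all). With GC content and length trends removed, 0 ligand genes and 856 genes in all were called there. Leaving out 1 library gave 0 to 2 ligand genes and 2470 to 3760 genes in all there, against 4075. Quantile normalization gave 4104 genes higher and 3905 lower at day 3 against sham, 2243 and 2011 at day 7 against sham, and 3811 and 3845 at day 7 against day 3. The cause of these shifts was not tested.

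Signs turned only for values that were not called. At day 3 against sham they were Ccl5 (-0.022 with median-of-ratios scaling, -0.082 with quantile normalization, and -0.044 to 0.40 with 1 library left out), Ccl27a (0.045 with trends removed, -0.45 to 0.091 with 1 library left out) and Ccl28 (-0.19 to 0.075 with 1 left out). At day 7 against sham, removed trends gave 0.27 for Ccl5, 0.11 for Ccl27a, 0.20 for Ccl17 and -0.15 for Ccl25. Median-of-ratios scaling gave -0.058 for Ccl21a and -0.052 for Cxcl16, and quantile normalization -0.0073 for Ccl21a. With 1 library left out, values ran from -0.42 to 0.086 for Ccl5, -0.067 to 0.35 for Ccl6, -0.33 to 0.22 for Ccl9, -0.32 to 0.33 for Ccl21a, -0.15 to 0.39 for Cxcl17, -0.85 to 0.022 for Cxcl1, -0.25 to 0.51 for Cxcl10 and -0.13 to 0.20 for Cxcl16. At day 7 against day 3, Ccl27a was 0.069 with trends removed, Ccl25 was 0.015 with median-of-ratios scaling and 0.027 with quantile normalization, and Cx3cl1 ran from -0.18 to 0.21 with 1 library left out.

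Groups share replicate numbers, and the deviations of same-numbered libraries correlated at r = -0.0543 to 0.238, above 0.1 in 3 of 9 pairs and not in every pair, so no pairing was assumed. The same number was the best match in 5 of 9. With the replicate number as a block, 12 ligand genes were called at day 3 and 1 at day 7 against sham, and 13 between the 2 times, where Cxcl14 was gained. Of all tested genes 8212, 3885 and 7540 were called under that setting in the same 3 comparisons, in that order. Depth is unknown, and values near 0 cannot be told from failed estimates.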
